A study of Mus musculus with 4 samples.

Results

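Glycolysis splits glucose into pyruvate, and lactate dehydrogenase turns pyruvate into lactate. The data described here are the transcript levels of 10 genes that encode enzymes of this route, *Hk2*, *Pfkm*, *Aldoa*, *Gapdh*, *Pgk1*, *Pgam1*, *Pgam2*, *Eno1*, *Eno3* and *Ldha*, in the frontal and parietal bones of the mouse skull vault. The members were taken by gene symbol, and all 10 were among the 23946 symbols in the files, although *Eno1* was listed at 0 in every library. RNA-seq had been run on calvarial bones of C57BL/6J mice at postnatal day 21. There were 4 libraries, 1 each for wild-type (WT) frontal bone, *Twist1*+/- frontal bone, WT parietal bone and *Twist1*+/- parietal bone. *Twist1*+/- mice carry a single working copy of *Twist1*, a basic helix-loop-helix transcription factor of the cranial sutures, and the labels give 12 mice for each strain without saying how their RNA was combined. The bones were taken with the pericranium and dura mater attached, so the RNA came from several tissues. The study normalised its RT-qPCR to *Gapdh*, which makes the stability of that gene across the 4 groups a question of its own, and the muscle isoforms *Pgam2*, *Eno3* and *Pfkm* were compared with the other members, called general isoforms here.

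Most steps of glycolysis can be carried out by more than one isozyme. *Pgam2*, *Eno3* and *Pfkm* encode the mutase, enolase and phosphofructokinase subunits typical of skeletal muscle, whereas *Pgam1*, *Eno1* and *Ldha* are used widely, and *Aldoa* is abundant both in muscle and elsewhere. In bone, osteoblasts are known for taking up glucose and releasing lactate even when oxygen is present, and several glycolytic genes, *Pgk1* and *Ldha* among them, are textbook targets of the hypoxia-inducible factors (HIF).

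Values are FPKM, a read density that corrects for transcript length and library size. With 1 library for each group there was no replicate error, so no test was made, no p-value is given, and each ratio compares 2 libraries rather than 2 conditions. Genes were counted past 3-fold, with a second count at 2-fold, if the higher of both libraries held 1 FPKM or more. The summed FPKM ranged from 496064 to 701440 between libraries. *Twist1* itself stood at 59.0 FPKM in WT frontal, 30.4 in *Twist1*+/- frontal, 52.5 in WT parietal and 50.7 in *Twist1*+/- parietal bone. The level was thus lower in *Twist1*+/- than in WT frontal bone, but the 2 parietal values were close, and every comparison that uses the library labelled *Twist1*+/- parietal bone rests on its label alone. The osteoblast gene *Bglap* was high in all 4 libraries, between 5220 and 7982 FPKM. The WT frontal library also stood apart from the other 3 in skeletal muscle genes, with a summed FPKM of 151 over 20 muscle markers against 1678 in *Twist1*+/- frontal, 4585 in WT parietal and 2266 in *Twist1*+/- parietal bone. In whole tissue of this kind, fewer cells of a type and less RNA per cell cannot be told apart.

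Among the measured members the level ran from 3.37 to 448 FPKM. *Aldoa* and *Ldha*, which encode aldolase and the main lactate dehydrogenase subunit, held the top places in all 4 libraries and *Gapdh* was the next below them. *Aldoa* was highest in 3 libraries, and *Ldha* was highest in WT parietal bone. *Hk2* and *Pgam1* were the 2 lowest measured members in every library but WT frontal bone, where *Pgam2* and *Hk2* were. Neighbours in this order cannot be separated by a spread, because none was measured.

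**Figure D1:**
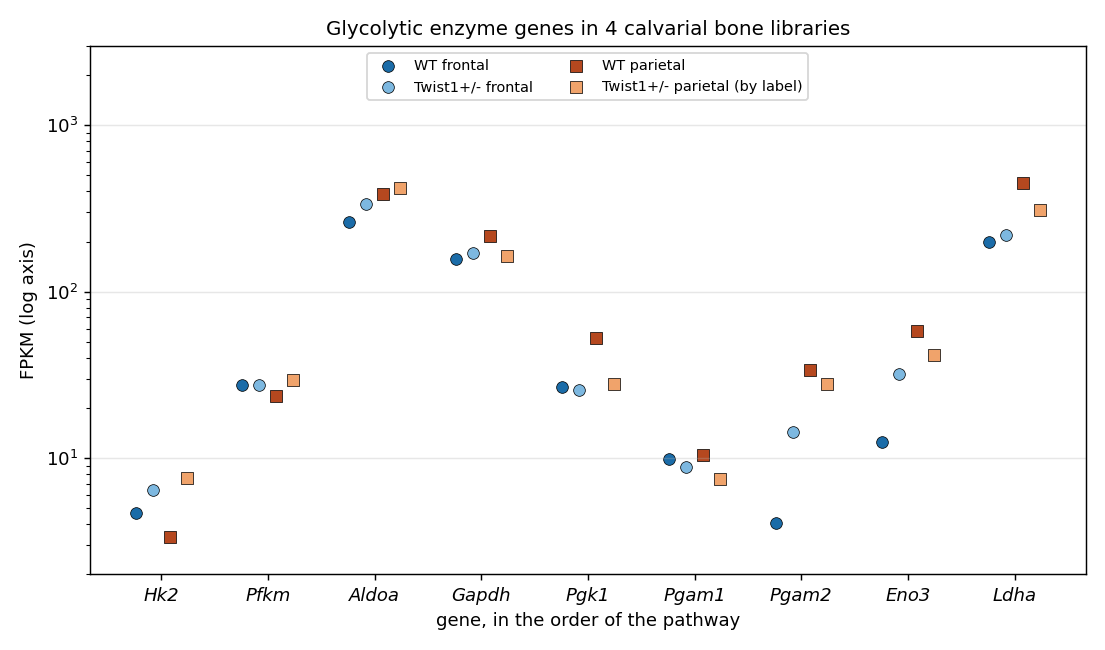
FPKM (log axis) of the 9 members above 0 in each of the 4 libraries, in the order of the pathway; each point is 1 library and there are no error bars. *Pgam2* and *Eno3* are lowest in WT frontal bone and highest in WT parietal bone, while *Pfkm* and *Gapdh* stay within 1.25-fold and 1.36-fold.

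The first steps trap glucose and commit it to the pathway. *Hk2*, the hexokinase of muscle and of many proliferating cells, gave 4.68 FPKM in WT frontal, 6.38 in *Twist1*+/- frontal, 3.37 in WT parietal and 7.53 in *Twist1*+/- parietal bone. Both *Twist1*+/- libraries were thus above both WT libraries, by a log2 ratio of 0.45 in frontal and 1.16 in parietal bone, the latter 2.24-fold. *Pfkm*, the muscle subunit of phosphofructokinase, had 27.3 FPKM in WT frontal, 27.4 in *Twist1*+/- frontal, 23.6 in WT parietal and 29.5 in *Twist1*+/- parietal bone. It had the narrowest range of the members, 1.25-fold between the lowest and the highest library, and it did not follow the muscle markers. *Aldoa*, which splits fructose bisphosphate, had 264 FPKM in WT frontal, 336 in *Twist1*+/- frontal, 386 in WT parietal and 418 in *Twist1*+/- parietal bone. Its *Twist1*+/- value was above the WT value in each bone, by a log2 ratio of 0.35 in frontal and 0.12 in parietal bone, neither of which reached 2-fold.

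The middle of the pathway harvests the first energy. *Gapdh*, glyceraldehyde-phosphate dehydrogenase, had 158 FPKM in WT frontal, 169.7 in *Twist1*+/- frontal, 215 in WT parietal and 164 in *Twist1*+/- parietal bone. The WT parietal library was the highest, and the other 3 lay close together. *Pgk1*, phosphoglycerate kinase, the first step that makes ATP, gave 26.5 FPKM in WT frontal, 25.7 in *Twist1*+/- frontal, 52.8 in WT parietal and 27.9 in *Twist1*+/- parietal bone. Its WT parietal value was 1.99-fold above WT frontal bone, just under the 2-fold mark, and the other 3 libraries again lay close together. *Ldha*, which regenerates NAD+ by making lactate, had 199 FPKM in WT frontal, 220.2 in *Twist1*+/- frontal, 448 in WT parietal and 308 in *Twist1*+/- parietal bone. Here both parietal libraries were above both frontal ones, with a 2.25-fold ratio between the WT bones.

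*Ldha* and *Pgk1* are shown here with the bases before their starts because they had the largest parietal-to-frontal ratios of the general isoforms in WT bone and are known HIF targets. The sequences are RefSeq windows of 250 bases upstream of the transcript start on GRCm38.p6, written 5' to 3' on the strand of the gene. Capitals are at ACGTG or its reverse complement CACGT, a form of the core letters of the HIF-response element. Neighbouring matches overlap where they form CACGTG. The *Ldha* window is the first of 2 that RefSeq gives for this gene, at chr7:46845554-46845803 on the plus strand, and the *Pgk1* window is at chrX:106186850-106187099 on the plus strand.
Ldha: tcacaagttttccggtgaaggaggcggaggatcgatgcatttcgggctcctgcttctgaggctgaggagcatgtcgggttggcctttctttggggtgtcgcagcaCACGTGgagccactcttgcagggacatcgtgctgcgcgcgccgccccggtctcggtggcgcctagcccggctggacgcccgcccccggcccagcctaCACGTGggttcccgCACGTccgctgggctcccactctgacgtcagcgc
Pgk1: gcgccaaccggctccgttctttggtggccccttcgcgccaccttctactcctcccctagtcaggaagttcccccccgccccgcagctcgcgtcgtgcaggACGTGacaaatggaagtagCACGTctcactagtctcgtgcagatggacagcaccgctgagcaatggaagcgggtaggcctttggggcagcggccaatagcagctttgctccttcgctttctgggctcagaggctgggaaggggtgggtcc
The *Ldha* window held CACGTG at -145 and -48 and CACGT at -34, counted from the transcript start, and the *Pgk1* window held ACGTG at -150 and CACGT at -131. At least 1 match occurs in 16.6% of the 32851 windows of all genes. With overlapping matches counted the *Ldha* window held 5, and 5 or more occur in 0.134% of windows. The number in the *Pgk1* window, 2, does not set it apart from the other members. Among the other members *Hk2*, whose log2 ratio between the WT bones was -0.48, also held 2 matches, *Pgam1* held 1, the first window of *Pfkm* held 2 that overlap, and *Aldoa* held 1 in each of 2 of its 3 windows. The *Gapdh* window and the second *Ldha* window held none of these letters. GCGTG or CACGC, another form of the core, stood in the *Gapdh* window at -54 and -44 and in the second *Ldha* window at -59. Windows of *Pgam1*, *Pfkm*, *Eno1* and *Eno3* also held it, the 2 printed here held 0, and 28.2% of all windows held at least 1. A match describes the letters of the window and says nothing of whether a factor binds there.

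The next 2 steps are where the muscle and general isoforms part. *Pgam1*, the widely used phosphoglycerate mutase, had 9.85 FPKM in WT frontal, 8.80 in *Twist1*+/- frontal, 10.4 in WT parietal and 7.44 in *Twist1*+/- parietal bone. *Pgam2*, its muscle counterpart, had 4.04 FPKM in WT frontal, 14.3 in *Twist1*+/- frontal, 33.9 in WT parietal and 27.9 in *Twist1*+/- parietal bone. *Pgam1* therefore varied by 1.39-fold over the libraries and *Pgam2* by 8.38-fold, more than 98.0% of the 6656 genes with a mean of at least 10 FPKM. The ratio of *Pgam2* to *Pgam1* went from 0.411 in WT frontal to 1.62 in *Twist1*+/- frontal, 3.27 in WT parietal and 3.75 in *Twist1*+/- parietal bone. *Pgam2* was the minor form in WT frontal bone, with 29.1% of the summed mutase FPKM, and the major form in the other 3 libraries, with 61.8% to 78.9%.

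*Eno3*, the muscle enolase, followed *Pgam2* in order. Its level was 12.4 FPKM in WT frontal, 31.9 in *Twist1*+/- frontal, 57.9 in WT parietal and 41.3 in *Twist1*+/- parietal bone, a 4.67-fold range. *Eno1*, the general enolase, was listed at 0 FPKM in all 4 libraries, which is not a measurement of its absence. A second symbol, *Eno1b*, a near copy of *Eno1* without most of its introns, was listed at 78.2 FPKM in WT frontal, 70.6 in *Twist1*+/- frontal, 89.9 in WT parietal and 82.7 in *Twist1*+/- parietal bone. Of the 75-base windows of the *Eno1* transcript, 59.7% were also found letter for letter in that of *Eno1b*, so reads of the pair cannot be told apart there. With *Eno1b* in the place of *Eno1*, a choice made after the values were seen, the ratio of *Eno3* to the general form was 0.159 in WT frontal, 0.451 in *Twist1*+/- frontal, 0.644 in WT parietal and 0.500 in *Twist1*+/- parietal bone. *Eno3* made up 10.4% of the summed enolase FPKM in WT frontal bone and 25.8% to 38.3% in the other 3 libraries.

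Because *Pgam2* and *Pgam1* carry out the same reaction yet differed so much in range, the bases before their starts are printed with those of *Eno3*. Capitals mark CANNTG, the E-box, the letters bound by basic helix-loop-helix factors such as the myogenic factors and TWIST1. The RefSeq windows on GRCm38.p6 are chr11:5803797-5804046 on the minus strand for *Pgam2*, chr11:70656926-70657175 on the plus strand for *Eno3* and chr19:41911621-41911870 on the plus strand for *Pgam1*.
Pgam2: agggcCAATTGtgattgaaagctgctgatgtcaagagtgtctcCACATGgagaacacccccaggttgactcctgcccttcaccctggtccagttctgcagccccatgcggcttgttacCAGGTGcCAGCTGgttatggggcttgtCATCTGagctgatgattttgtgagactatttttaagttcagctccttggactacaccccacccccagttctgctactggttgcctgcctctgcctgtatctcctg
Eno3: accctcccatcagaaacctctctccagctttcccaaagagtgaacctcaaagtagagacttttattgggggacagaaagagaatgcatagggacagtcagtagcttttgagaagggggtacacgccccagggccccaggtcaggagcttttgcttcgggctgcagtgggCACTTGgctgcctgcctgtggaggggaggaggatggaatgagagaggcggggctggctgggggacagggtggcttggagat
Pgam1: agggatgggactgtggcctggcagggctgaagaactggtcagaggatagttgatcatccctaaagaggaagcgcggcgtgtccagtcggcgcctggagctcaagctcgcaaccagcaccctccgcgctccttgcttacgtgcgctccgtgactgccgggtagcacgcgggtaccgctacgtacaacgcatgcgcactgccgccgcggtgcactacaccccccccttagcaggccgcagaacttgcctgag
*Pgam2* held 5 E-boxes, at -245, -207, -132, -125 and -105, of which that at -125 was CAGCTG. *Eno3* held 1, at -81, and *Pgam1* held 0. The number did not follow the kind of isoform, since the first window of *Pfkm*, whose level was nearly flat, held 3, and the windows of the general isoforms *Pgk1* and *Ldha* held 2 each. At least 1 E-box occurs in 66.2% of all windows, so a single match is common, and 5 or more occur in 1.15% of them. CAGCTG occurs in 13.0%. No member window held the strict form of the MEF2 motif that was searched, which was found in 0.508% of all windows. The run ctatttttaa in the *Pgam2* window was not counted by that search. Looser forms of the motif were not searched, so whether a member window holds one was not tested. These are matches of letters in a short stretch, and no binding was measured.

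**Figure D2:**
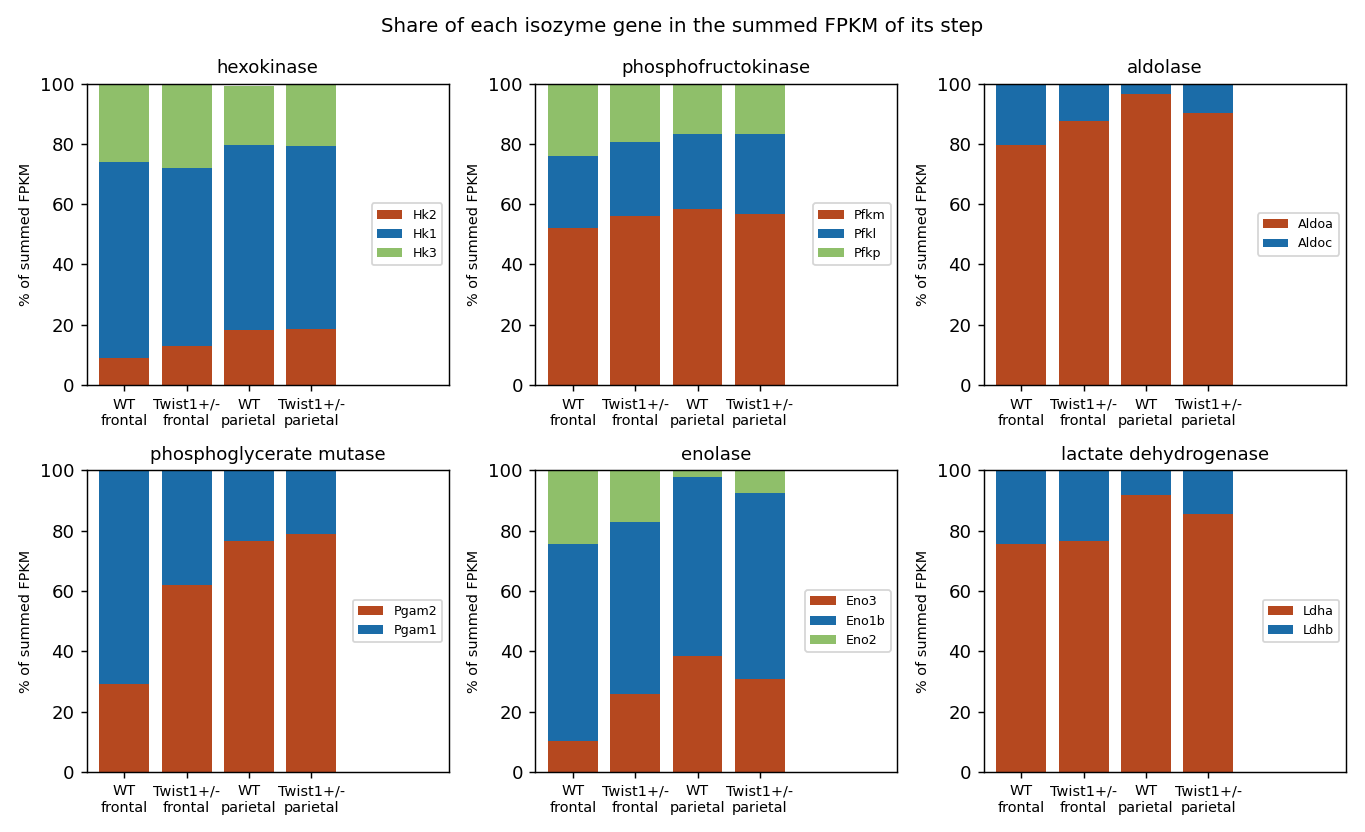
Share (%) of each isozyme gene in the summed FPKM of its step, for 6 steps and 4 libraries, aldolase being drawn from *Aldoa* and *Aldoc*; genes under 1% of a step are left out, so a bar can end just below 100%. The share of *Pgam2* is 29.1% in WT frontal bone and 61.8% to 78.9% elsewhere, while that of *Pfkm* stays between 52.0% and 58.4%. The mutase shares are uncertain because most *Pgam1* windows also occur elsewhere in the genome.

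At the phosphofructokinase step *Pfkm* kept a near ratio to *Pfkl* while the third isozyme, *Pfkp*, varied more. *Pfkm* stood at 2.19 times *Pfkl*, the liver-type subunit, in WT frontal, 2.27 in *Twist1*+/- frontal, 2.35 in WT parietal and 2.13 in *Twist1*+/- parietal bone. *Pfkp*, the platelet-type subunit, had 12.7 FPKM, or 24.2% of the step, in WT frontal, 9.47 (19.3%) in *Twist1*+/- frontal, 6.76 (16.8%) in WT parietal and 8.62 (16.6%) in *Twist1*+/- parietal bone. *Aldoa* supplied 79.6% of the summed FPKM of *Aldoa* and *Aldoc*, the brain-type aldolase, in WT frontal bone, 87.7% in *Twist1*+/- frontal, 96.7% in WT parietal and 90.1% in *Twist1*+/- parietal bone. *Ldha* supplied 75.5%, 76.7%, 91.7% and 85.4% of the lactate dehydrogenase FPKM in the same libraries, the rest being *Ldhb*, the heart-type subunit. *Hk2* was a minor hexokinase throughout, with 8.94% of the step in WT frontal, 13.1% in *Twist1*+/- frontal, 18.3% in WT parietal and 18.6% in *Twist1*+/- parietal bone, against 58.9% to 65.1% for *Hk1*.

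WT parietal bone was then compared with WT frontal bone. *Pgam2* was 8.38-fold higher (log2 ratio 3.07) and *Eno3* 4.67-fold higher (2.22) in parietal bone, and these were the 2 of 9 measurable members past 3-fold, where 4.07% of 14214 genes were past 3-fold higher. At 2-fold *Ldha* joined them, which made 3 members, where 11.2% of genes were past 2-fold higher. *Pgk1* was higher by a log2 ratio of 0.99, *Aldoa* by 0.55, *Gapdh* by 0.44 and *Pgam1* by 0.07, although the last 2 turned to -0.06 and -0.43 when libraries were scaled to the same summed FPKM. *Hk2* and *Pfkm* were lower in parietal bone, with log2 ratios of -0.48 and -0.21. The median over the muscle isoforms was 2.22 and that over the 6 general isoforms was 0.50, beside -0.01 over all genes, a difference of 1.73. Since *Pfkm* went the other way, the muscle median rests on *Pgam2* and *Eno3*.

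The markers of skeletal muscle went with these values, 17 of 18 being more than 3-fold higher in WT parietal bone with a median log2 ratio of 4.54. Creatine kinase *Ckm* had 9.08 FPKM in WT frontal, 134 in *Twist1*+/- frontal, 263 in WT parietal and 206.5 in *Twist1*+/- parietal bone. *Pgam2* kept a near ratio to *Ckm* in the 3 libraries with more muscle RNA, 0.106 in *Twist1*+/- frontal, 0.129 in WT parietal and 0.135 in *Twist1*+/- parietal bone, and stood at 0.445 in WT frontal bone. *Eno3* to *Ckm* was likewise 0.238, 0.220 and 0.200 in those 3 libraries and 1.37 in WT frontal bone. *Pfkm* to *Ckm* was 3.01 in WT frontal bone and 0.204, 0.0897 and 0.143 in the others. *Ckm* is a single marker, and the muscle markers did not keep a near ratio to each other. In *Twist1*+/- frontal, WT parietal and *Twist1*+/- parietal bone *Mylpf* had 353, 1295 and 357 FPKM, and *Mb* had 224, 87.2 and 261. The near ratios to *Ckm* therefore depend on the marker chosen. The part of muscle tissue on the bones in the 2 member ratios was not tested.

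The other enzymes of the pathway were mostly lower in WT parietal than in WT frontal bone. Of 12 such genes with a ratio, from a list of 17 in the files, 5 were more than 3-fold lower in WT parietal bone and 0 were higher, where 9.2% of all genes were past 3-fold lower. The median log2 ratio was -0.80, and the genes that were lower include isozymes typical of brain, myeloid cells, liver and red cells. *Eno2*, the neuronal enolase, had 29.0 FPKM in WT frontal and 3.47 in WT parietal bone, and *Aldoc* 67.4 and 13.3. *Hk1* had 34.1 and 11.3 FPKM, *Hk3*, a hexokinase of myeloid cells, 13.5 and 3.60, and *Pklr*, the pyruvate kinase of liver and red cells, 9.93 and 1.56. *Pkm*, the main pyruvate kinase, *Bpgm*, which is characteristic of red cells, and *Tpi1* were the genes of this list at 100 FPKM or more in any library. *Pkm* had 171.3 FPKM in WT frontal, 215.3 in *Twist1*+/- frontal, 185.9 in WT parietal and 238.6 in *Twist1*+/- parietal bone, whereas *Tpi1* had 76.4, 90.3, 148.9 and 93.9, a WT parietal excess of 1.95-fold. *Bpgm* had 206.8 FPKM in WT frontal, 114.6 in *Twist1*+/- frontal, 139.6 in WT parietal and 148.6 in *Twist1*+/- parietal bone.

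Markers of other tissues moved with the genes that were lower. In WT parietal bone 8 of 10 brain and meninges markers were more than 3-fold lower than in WT frontal bone (median log2 ratio -3.13), as were 4 of 10 neutrophil markers (-1.22). *Igf2* of the first list went the other way, with 231 FPKM in WT frontal and 1127 in WT parietal bone. So did *Mmp9* of the neutrophil list, with 393 FPKM in WT frontal and 747 in WT parietal bone. The summed FPKM of the brain and meninges list was 2533 in WT frontal, 914 in *Twist1*+/- frontal, 1240 in WT parietal and 1141 in *Twist1*+/- parietal bone, and without *Igf2*, left out after its values were seen, it was 2302, 699, 113 and 777, lowest in WT parietal bone. That of the neutrophil list was 15760, 17632, 8254 and 10648. Of the 12 genes of the osteoblast list 6 were more than 2-fold higher in WT parietal bone, where 11.2% of genes were. The 6 include *Col1a1* and *Col1a2*, counted only because they were listed at 0 in WT frontal bone. Among the others were *Ibsp* at 869 against 278 FPKM and *Spp1* at 12239 against 4107. The median log2 ratio was 0.28 over the 10 with a ratio, of which 6 were positive and 4 negative. The 4 erythroid genes with a ratio had -1.97. The part of these tissues in the ratios of *Eno2*, *Aldoc* and *Hk3* was not tested. *Hba-a1*, *Hbb-b1* and *Hbb-bt* of the erythroid list were listed at 0 in WT frontal bone, and *Col1a1* and *Col1a2* in every library but WT parietal bone, so a 0 in these files can be a failed estimate.

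Among 19 glucose and lactate carriers and regulators, 2 were more than 2-fold higher and 3 more than 2-fold lower in WT parietal than in WT frontal bone, with 0 past 3-fold, where 11.2% of all genes were past 2-fold higher and 15.6% lower. *Pdk1*, the kinase that holds pyruvate back from the mitochondria, had 8.86 FPKM in WT frontal and 22.2 in WT parietal bone, and *Pdk4* was 2.21-fold higher. *Slc2a1*, the glucose carrier GLUT1, had 24.1 FPKM in WT frontal and 8.08 in WT parietal bone. *Slc2a3* was 2.35-fold and *Slc16a1* 2.10-fold lower. Of 12 HIF targets outside glycolysis, 3 were more than 3-fold higher in WT parietal bone, namely *Bnip3* at 34.7 against 11.1 FPKM, *Ankrd37* at 8.01 against 1.88 and *Car9* at 1.46 against 0.388, where 4.07% of all genes were past 3-fold higher. The median over the 12 was 0.14, so most of that list lay near the median of all genes.

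**Figure D3:**
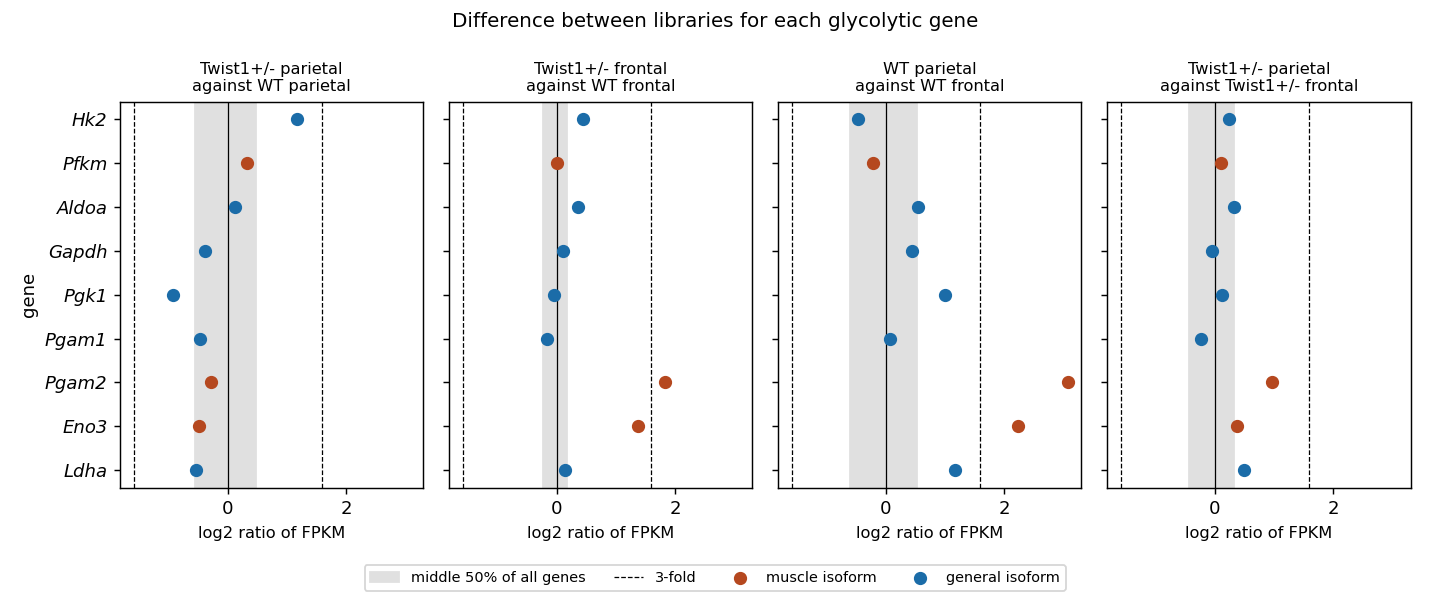
Log2 ratio of FPKM for the 9 measurable members in the 4 comparisons; each point is a ratio of 2 single libraries, the grey band holds the middle 50% of all genes and the dashed lines mark 3-fold. *Pgam2* and *Eno3* lie beyond the band in the WT bone comparison (3.07 and 2.22) and the frontal genotype comparison (1.82 and 1.36), and no member passes 3-fold in the other panels.

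In frontal bone the *Twist1*+/- library was compared with WT. *Pgam2* was 3.53-fold higher (log2 ratio 1.82) in the *Twist1*+/- library and was the 1 member past 3-fold, where 3.17% of 14341 genes were past 3-fold higher. *Eno3* was 2.57-fold higher (1.36), making 2 members past 2-fold higher against 4.98% of genes. The third muscle isoform, *Pfkm*, had a log2 ratio of 0.01. *Hk2* had 0.45, *Aldoa* 0.35, *Ldha* 0.14, *Gapdh* 0.10, *Pgk1* -0.05 and *Pgam1* -0.16. The muscle median was 1.36 and the general median 0.12, a difference of 1.24. Skeletal muscle markers were more than 3-fold higher in 15 of 18 (median 3.47), and their part in the 2 ratios was not tested. This comparison shares the WT frontal library with that of the WT bones. Of the other pathway enzymes 0 of 12 passed 2-fold in either direction, where 7.18% of genes did, and their median was -0.15.

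In parietal bone the library labelled *Twist1*+/- was compared with WT. No member passed 3-fold, where 8.19% of 13914 genes did so in either direction. *Hk2* was 2.24-fold higher and was the 1 member past 2-fold, where 10.8% of genes were past 2-fold higher. *Pfkm* and *Aldoa* were also higher, with log2 ratios of 0.32 and 0.12, that of *Aldoa* turning to -0.34 with the trend on GC content subtracted. *Pgk1* (-0.92), *Ldha* (-0.54), *Eno3* (-0.49), *Pgam1* (-0.48), *Gapdh* (-0.39) and *Pgam2* (-0.28) were lower, the last turning to 0.11 when scaled to *Gapdh*. The median of all 9 was -0.39, beside -0.06 over all genes. Muscle and general isoforms hardly parted here, with medians of -0.28 and -0.43, and the difference of 0.15 turned to -0.16 with the GC trend subtracted. That trend ran from a median log2 ratio of -0.59 in the lowest to 0.70 in the highest of 20 groups of genes by GC content. Subtracting it moved *Gapdh* to -0.84, *Pgam2*, *Eno3* and *Pgk1* to -0.73 and *Pgam1* to -0.60, and left *Ldha* at -0.54. Of 19 skeletal muscle markers 5 were more than 3-fold lower and 1 higher, with a median of -0.49, where 2.94% of genes were past 3-fold lower. The 2 highest ratios of the other pathway enzymes were those of *Pklr* and *Aldoc*, 3.82-fold and 3.44-fold higher in the *Twist1*+/- library, where 5.25% of genes were past 3-fold higher, and at 2-fold *Eno2*, *Hk3* and *Hk1* joined them, making 5 of 12. Brain and meninges markers were more than 3-fold higher in 6 of 10, while 2 of 10 were below WT, among them *Igf2*, more than 3-fold lower (log2 ratio -1.63). Neutrophil markers were more than 3-fold higher in 2 of 10, with all 10 above WT, and 7 of 8 erythroid genes with a ratio were above WT, 1 of them past 2-fold. The part of these cells in the ratios was not tested. Of the HIF targets outside glycolysis *Bnip3*, *Car9*, *Ankrd37* and *Kdm3a* were lower by 2.12-fold, 2.51-fold, 2.25-fold and 2.07-fold, making 4 of 12 past 2-fold lower against 9.4% of all genes. The median log2 ratio of the 12 was 0.03, with 7 above WT and 5 below, so the list as a whole was not lower. *Pdk1* was 2.85-fold lower and *Slc2a1* 2.63-fold higher.

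The last comparison was of the 2 *Twist1*+/- bones. No member passed 3-fold or 2-fold, where 4.09% of 14305 genes passed 3-fold and 11.9% passed 2-fold in either direction. *Pgam2* came nearest, at 1.95-fold higher in parietal bone (log2 ratio 0.97), followed by *Ldha* (0.48), *Eno3* (0.37), *Aldoa* (0.32), *Hk2* (0.24), *Pgk1* (0.12) and *Pfkm* (0.11), with *Gapdh* at -0.05 and *Pgam1* at -0.24. Scaled to the same summed FPKM, the ratios of *Aldoa*, *Hk2*, *Pgk1* and *Pfkm* turned to -0.01, -0.09, -0.21 and -0.22. The trend on GC content ran from a median log2 ratio of -0.51 in the lowest to 0.42 in the highest group. Subtracting it moved *Gapdh* to -0.30 and *Aldoa* to 0.06, and only *Pfkm* changed sign, to -0.07. The muscle median exceeded the general median by 0.19, or by 0.08 with the GC trend subtracted. Skeletal muscle markers were also nearer here, with 1 of 18 more than 3-fold higher, where 0.846% of genes were, and a median of 0.57.

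*Gapdh* was next read as a reference gene. Its highest value was 1.36 times its lowest, and its coefficient of variation over the 4 libraries was 14.7%. With the trend of log2 ratios on GC content subtracted the range was 1.85-fold, while other scalings and pseudocounts gave 1.30-fold to 1.38-fold. In a set of 16 common reference genes that includes *Gapdh* and *Pgk1* it had the third narrowest range, after *Ywhaz* (1.23-fold) and *Sdha* (1.32-fold). *Polr2a* had the widest at 2.404-fold, and *Pgk1*, also used as a reference, ranged over 2.05-fold. The median range of the 6656 genes with a mean of at least 10 FPKM was 1.68-fold, and 19.3% of them had a narrower range than *Gapdh*, both on the FPKM as deposited. Of the 16 genes 12 were highest in WT parietal bone, *Gapdh* included.

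**Figure D4:**
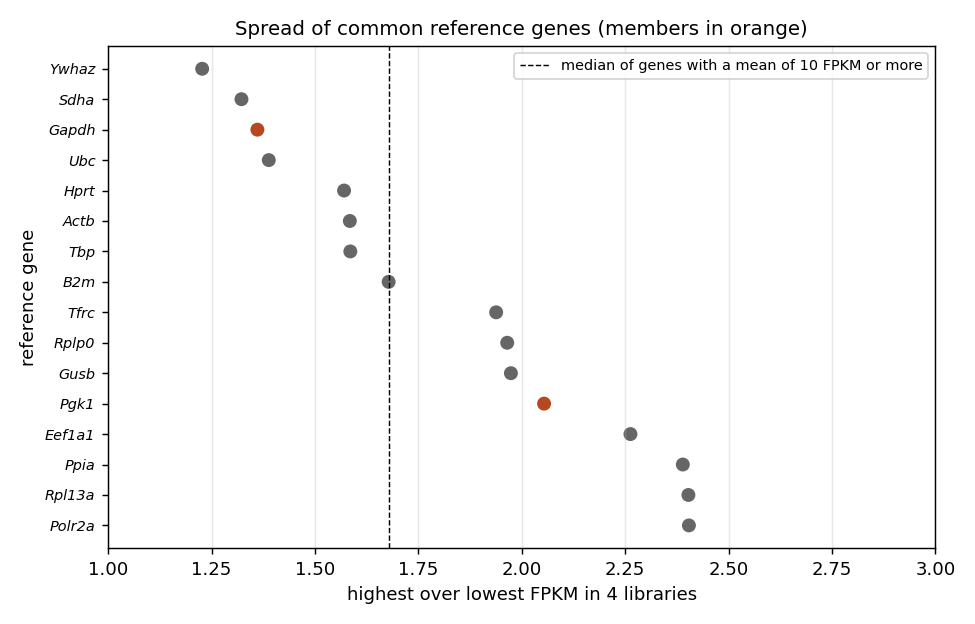
Highest over lowest FPKM across the 4 libraries for 16 reference genes, with the median of the 6656 genes at a mean of 10 FPKM or more as a line. *Gapdh* at 1.36 is the third narrowest and *Pgk1* at 2.05 lies beyond the median of 1.68.

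Dividing every gene by *Gapdh* shifts all log2 ratios by the same amount, 0.39 for *Twist1*+/- against WT parietal bone, -0.10 for *Twist1*+/- against WT frontal bone, -0.44 for WT parietal against WT frontal bone and 0.05 for the *Twist1*+/- bones. For *Twist1* the log2 ratio in parietal bone went from -0.05 to 0.34, and that in frontal bone from -0.96 to -1.06. Between the WT bones it went from -0.17 to -0.61. The ratio of *Twist1* to *Gapdh* was 0.374 in WT frontal, 0.179 in *Twist1*+/- frontal, 0.244 in WT parietal and 0.309 in *Twist1*+/- parietal bone. The 5 genes whose centred log2 FPKM was nearest to that of *Gapdh* over the 4 libraries, among 7873 genes, were *Serp1*, *Gatc*, *Hsf2*, *Zadh2* and *Pcnp*, with a largest gap of 0.02 for *Serp1*. For *Pgam2* they were *Actn3* (0.31), *Des* (0.36), *Mir682* (0.42), *Pvalb* (0.48) and *BC002163* (0.49). *Actn3*, *Des* and *Pvalb* encode proteins of muscle fibres. With 4 points per gene such likeness is a description.

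How well reads of each member can be placed was read from the mm9 genome, with GENCODE M1 gene models. Of the windows of 75 bases, the read length, in each transcript, the share that also occurs elsewhere in the genome was 91.4% for *Pgk1*, 88.9% for *Pgam1*, 85.4% for *Gapdh* and 65.4% for *Eno1*. It was 7.15% for *Ldha*, 1.49% for *Aldoa* and 0% for *Hk2*, *Pfkm*, *Pgam2* and *Eno3*. The copies of *Gapdh* windows lay in 132 bins of 10 kb. The levels of *Gapdh*, *Pgk1* and *Pgam1* therefore depend on how the aligner and Cuffdiff handled reads with several places, and are uncertain, whereas the muscle isoforms have no such copies. On mm9 *Gapdh* lies at chr6:125111871-125116485 on the reverse strand with 7 exons, *Pgam2* at chr11:5701643-5703736 on the reverse strand with 3 exons, *Eno3* at chr11:70470704-70476015 on the forward strand with 12 exons and *Ldha* at chr7:54096845-54110997 on the forward strand with 8 exons. With the general isoforms limited to *Aldoa*, *Ldha* and *Hk2*, a choice made after these shares were seen, the difference between muscle and general medians in parietal bone turned from 0.15 to -0.40.

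**Figure D5:**
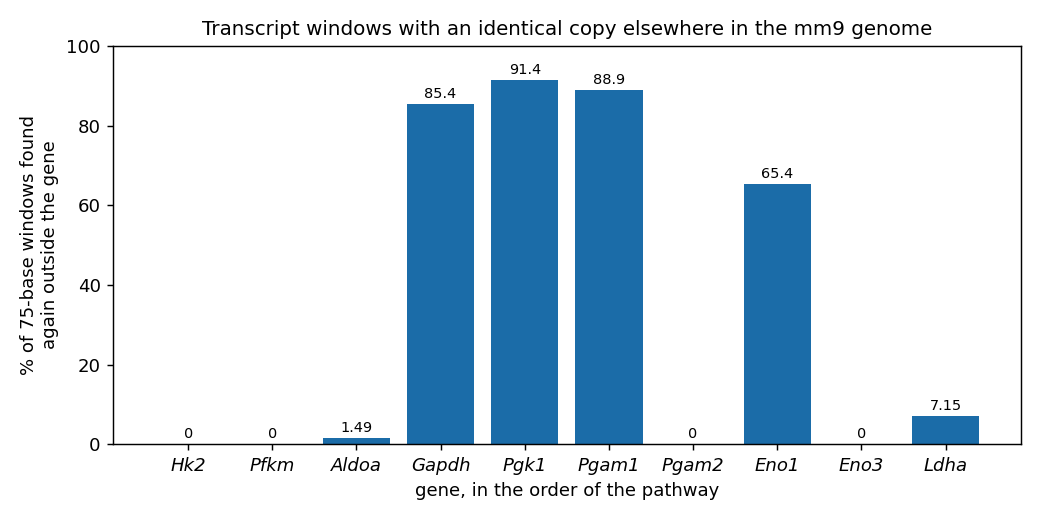
Share (%) of the 75-base windows of each member transcript that occur at another place in the mm9 genome. *Pgk1*, *Pgam1* and *Gapdh* have 85.4% or more and the 3 muscle isoforms have 0%.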

How the data were processed

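RNA-seq had been done on 4 libraries, 1 per genotype and bone, grouped by the labels. The authors aligned 75-base single-end reads to mm9 with STAR 2.4.2a and quantified genes with Cuffdiff (Cufflinks 2.2.1). The deposited values are FPKM, 1 for each of 23946 symbols and library. The sources used here give an average number of reads but no depth for each library, so no counting interval was computed. The most common FPKM ratio of low genes, taken as the relative worth of 1 read, was 1.30 between *Twist1*+/- and WT frontal bone (776 genes) and 1.31 between WT parietal and *Twist1*+/- frontal bone (556 genes).

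Ratios were computed on the FPKM as deposited, with no pseudocount, in Python 3.11.15 with pandas 2.3.3. Genes were called past 3-fold with at least 1 FPKM in the higher library. The calling was run on simulated data whose planted changes were well above that threshold. Their recovery was thus assured, and the run says nothing of wrong calls in these libraries. The text names all 10 members, the other pathway genes past 2-fold or at 100 FPKM or more, the reference genes with the lowest and highest range, and 5 most alike genes for *Gapdh* and *Pgam2*; genes of the carrier, HIF and marker lists were named after their values were seen. Members and lists were chosen with earlier results of these data known. Upstream sequences came from RefSeq (GRCm38.p6), where all 10 members had a window, and were searched on both strands. Pseudocounts, scalings and a GC correction were tried as alternatives. Protein sequences were not used here, and 2 genes of the lists are not reported here.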

Additional observations from a re-analysis of the deposited data

Results flagged for a closer look

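Several members differed in opposite directions under the same contrast. With 1 library per group each of these differences was not tested.

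*Twist1*+/- against WT went up in frontal and down in parietal bone for *Pgam2*, *Eno3*, *Ldha* and *Gapdh*, and the parietal minus the frontal log2 ratio was -2.10 for *Pgam2*, -1.85 for *Eno3*, -0.68 for *Ldha* and -0.49 for *Gapdh*. Parietal against frontal bone was of opposite direction in the WT and *Twist1*+/- pairs for 4 genes. The *Twist1*+/- minus the WT log2 ratio was 0.72 for *Hk2*, 0.32 for *Pfkm*, -0.49 for *Gapdh* and -0.32 for *Pgam1*. Scaled to the same summed FPKM, none of these 4 genes was of opposite direction: the WT and the *Twist1*+/- ratios were -0.98 and -0.09 for *Hk2*, -0.71 and -0.22 for *Pfkm*, -0.06 and -0.37 for *Gapdh*, and -0.43 and -0.57 for *Pgam1*. That scaling moves all genes down in both pairs, to a median log2 ratio of -0.51 for the WT bones and -0.36 for the *Twist1*+/- bones. The skeletal muscle markers showed the same order of medians as *Pgam2* and *Eno3* in the genotype contrast, 3.47 in frontal and -0.49 in parietal bone. These differences use the library labelled *Twist1*+/- parietal bone, whose *Twist1* value was close to that of WT parietal bone.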

How the results depend on the processing

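Of 101 alternative values for the comparisons, 97 kept their side and size, where size counted as kept within 1.5-fold. Part of these values could not change, since scaling a library leaves the difference between muscle and general medians as it was. The 97 is therefore not a measure of stability. At 2-fold in place of 3-fold the count of members was 1 in place of 0 for *Twist1*+/- against WT parietal bone and 2 in place of 1 for *Twist1*+/- against WT frontal bone. In parietal bone the muscle minus general difference of 0.15 turned to -0.16 with the trend of log2 ratios on GC content subtracted, and to -0.40 with the general isoforms that have few windows elsewhere, chosen after seeing the data. Of 212 alternative values for single members 13 moved and 0 reversed a called direction. Scaling to the same summed FPKM changed the sign of 7 uncalled log2 ratios, such as that of *Gapdh* between the WT bones, 0.44 to -0.06, where the median log2 ratio of all genes then was -0.51. Scaling to *Gapdh* and subtracting the GC trend changed 3 each. No paired analysis was possible because each group holds 1 library and the groups share a single replicate number. Leaving out a library was not possible for the same reason. The range of *Gapdh* went from 1.36-fold to 1.85-fold with the GC trend subtracted. The spread between animals and the depth of each library are not known.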
